A study of Mus musculus with 12 samples.

Results

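The genes described here are 45 interferon-stimulated genes, taken from the deposited count table by their symbols. All 45 were present among its 55315 gene rows, and all 45 passed the filter on low counts that left 16677 genes for testing. They were measured by bulk RNA sequencing in epithelial cells sorted from mouse skin wounds at day 3. A ring of skin 0.25 mm wide next to the wound was taken from 2 or 3 mice pooled per group for each sequencing run. Live Epcam-positive, integrin α6-positive cells without markers of immune cells, endothelial cells or melanocytes were sorted by integrin α5 (A5). The study names the A5-positive cells the migrating tongue and the A5-negative cells the wound edge.

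The 4 groups were wild-type A5-negative, wild-type A5-positive, RORγt-deficient A5-negative and RORγt-deficient A5-positive cells, with 3 libraries each, numbered 1 to 3. All mice were wounded, so there is no unwounded group. RORγt is a transcription factor that certain lymphocytes need to make interleukin-17, and the titles call its deficient mice GFP-KI. The labels used here give no strain, age or sex, and no further account of the allele. Each library is a pool of mice, so the p-values below measure the spread between pools.

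Interferons are secreted proteins that warn cells of infection or tissue damage. Type I interferons (alpha, beta and kappa) and type III interferons (lambda) lead through Janus kinases to a complex of Stat2 and Irf9 with a partner, which binds the interferon-stimulated response element (ISRE) of its target genes. Type II interferon, encoded by Ifng, acts through the gamma-activated site (GAS), and many of the genes below respond to more than 1 of these interferons. In skin, keratinocytes themselves carry interferon receptors and make interferon kappa.

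The sequences below show these elements in 6 members, chosen for the results that follow or as textbook examples of each element. Slfn9, Ifit1, Ifit3 and Gbp2 passed a test in 1 or more comparisons, Isg15 holds overlapping ISRE cores, and Irf1 holds a GAS. Each is the 160 bases before the annotated transcription start, 5′ to 3′ on the gene's strand, from RefSeq on GRCm38.p6. Capitals mark letters matching the ISRE core, GAAA and GAAA with any 2 bases between them, in the first 5 genes and the GAS TTCNNNGAA in Irf1, on either strand.
Slfn9 (chr11:82991831-82991990, minus strand): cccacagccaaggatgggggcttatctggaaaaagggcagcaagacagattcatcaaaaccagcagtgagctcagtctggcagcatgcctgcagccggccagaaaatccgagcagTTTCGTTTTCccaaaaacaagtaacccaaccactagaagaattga
Ifit1 (chr19:34640729-34640888, plus strand): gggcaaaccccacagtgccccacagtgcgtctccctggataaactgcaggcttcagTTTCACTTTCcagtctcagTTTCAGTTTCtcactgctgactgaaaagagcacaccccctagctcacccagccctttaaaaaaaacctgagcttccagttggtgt
Ifit3 (chr19:34583369-34583528, plus strand): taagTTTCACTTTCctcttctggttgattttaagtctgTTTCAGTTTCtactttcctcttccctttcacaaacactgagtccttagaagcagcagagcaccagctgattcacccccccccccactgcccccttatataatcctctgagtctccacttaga
Gbp2 (chr3:142620503-142620662, plus strand): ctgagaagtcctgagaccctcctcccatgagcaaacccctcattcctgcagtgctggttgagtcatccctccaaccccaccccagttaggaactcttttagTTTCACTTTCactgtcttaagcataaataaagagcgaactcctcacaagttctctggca
Isg15 (chr4:156200819-156200978, minus strand): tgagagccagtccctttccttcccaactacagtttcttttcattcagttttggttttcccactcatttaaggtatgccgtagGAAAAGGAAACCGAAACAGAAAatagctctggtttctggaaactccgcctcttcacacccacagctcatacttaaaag
Irf1 (chr11:53769854-53770013, plus strand): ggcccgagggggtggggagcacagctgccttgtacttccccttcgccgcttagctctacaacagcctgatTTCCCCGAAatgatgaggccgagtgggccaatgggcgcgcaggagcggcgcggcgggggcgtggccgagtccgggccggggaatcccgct

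In a window of 250 bases before to 50 bases after the start, 35 of the 45 members had a sequence. The ISRE core stood in 20 of the 35 (57.1%), against 3.99% of all 27025 genes with a window. The GAS stood in 9 of the 35 (25.7%), against 9.55% of all genes. Both strands were searched, and matches could overlap, as the 3 cores in the Isg15 stretch do. The members with both motifs in the window were Oas1a, Eif2ak2, Bst2, Ifitm3, Gbp7 and Igtp. A match describes letters and was not measured as binding.

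Total counts ran from 29293687 to 74563616 per library. Itga5, which encodes the sorted integrin chain, was at 42.3 to 56.2 CPM (counts scaled to the library total) in the A5-negative libraries and at 84.7 to 139 CPM in the A5-positive ones. Keratinocyte markers summed to between 37604 and 82090 CPM. Libraries with the same number deviated together. Their deviations from the group means correlated at 0.153 to 0.722 across genes in all 18 same-number pairs, against -0.630 to 0.315 in the 36 pairs of different number. The numbers therefore pair the libraries, and each result is given without and, where it changes the call, with the library number as a block in the model.

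Levels are given in CPM scaled by the trimmed mean of M-values (TMM), and are compared between genes only per kilobase of exon. On that scale Ifitm3, a membrane protein that hinders virus entry, led with a median level of 449 CPM per kb over the 12 libraries. It was followed by Irf1, a transcription factor induced strongly by interferon gamma, at 70.5 CPM per kb, the chemokine Cxcl10 at 21.3, Ifi35 at 17.7 and the GTPase Gbp2 at 16.5 CPM per kb. The lowest median levels were those of Samd9l (0.472 CPM per kb), Ifi44 (0.462 CPM per kb) and Tnfsf10 (0.225 CPM per kb). Between its lowest and highest library, the level of a member differed by a median of 3.77 times, from 1.62 times for Stat2 to 19.97 times for Ifit3. The members that carry the signal, Stat2 and Irf9 (1.71 times), were thus among the steadiest, and an antiviral effector was the most variable.

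**Figure D1:**
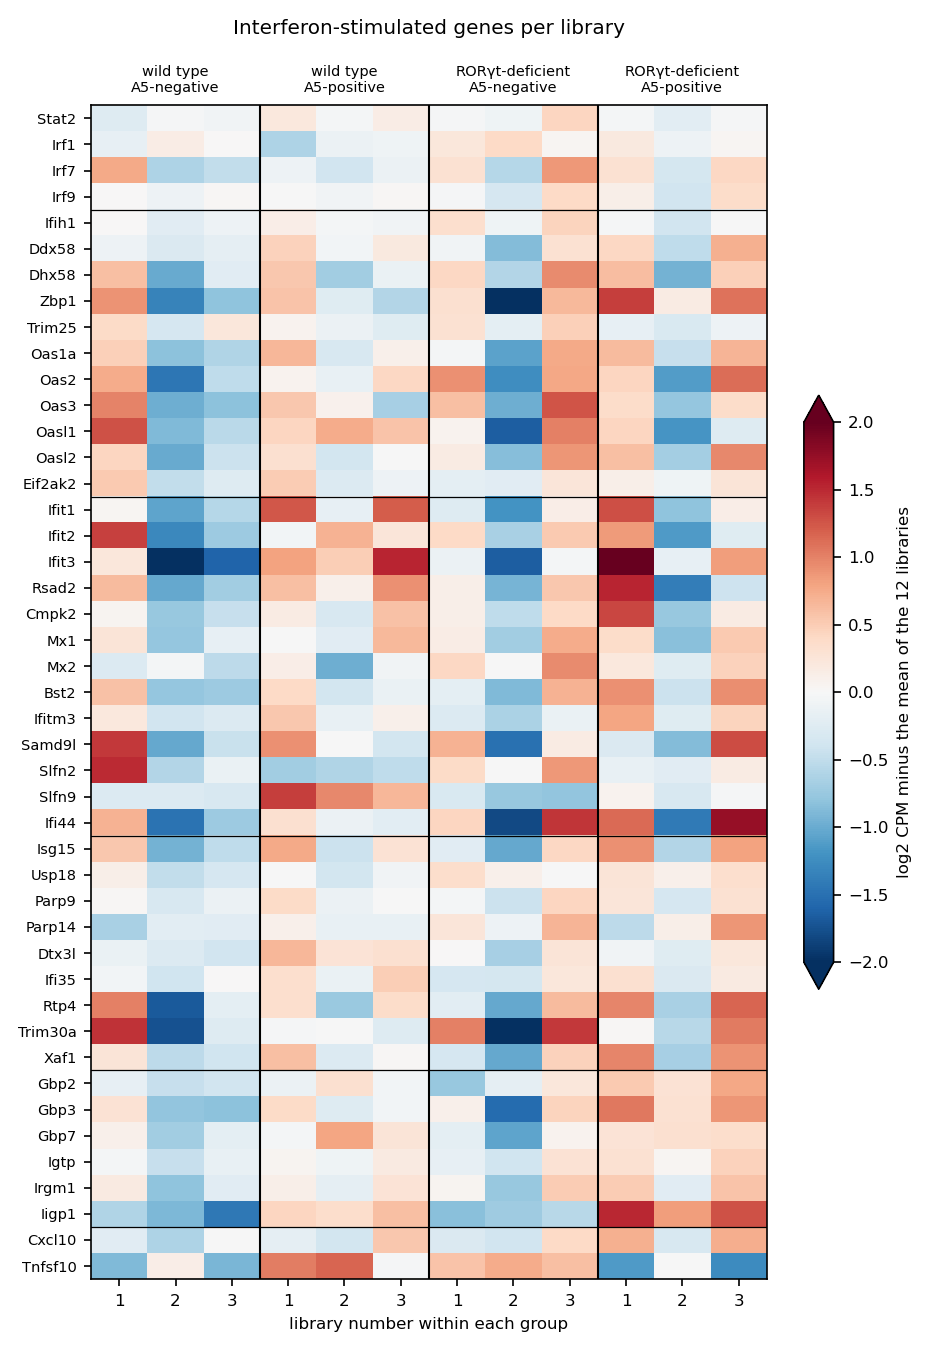
Level of each of the 45 interferon-stimulated genes (rows) in each of the 12 libraries (columns, by group and library number), as log2 CPM minus the gene's mean over the 12 libraries. Columns numbered 2 are mostly below the mean. Iigp1 is high in A5-positive cells of both genotypes, and Slfn9 in those of wild type only.

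The first comparison asks how A5-positive cells differed from A5-negative cells within wild-type wounds. Iigp1 and Slfn9 rose, and no member fell. Counts of genes were fitted with edgeR's quasi-likelihood test over all 12 libraries, with Benjamini-Hochberg adjustment over 16677 genes and a threshold of 0.05 on the adjusted p. The 2 members are 4.44% of the 45, and 3.12% of all genes tested rose and 0.33% fell, so the share that rose was near the background. At an unadjusted p under 0.05 there were 7 members, against 20.5% of all genes. The median member differed by 0.26 on the log2 scale, against 0.03 for all genes, and 38 of 45 members lay above 0, against 52.1% of all genes. Leaving out A5-negative library 1 or 2 gave a median of 0.70 or 0.11, and leaving out A5-positive library 1 gave 0.12. For 7 members (Ddx58, Ifit3, Slfn9, Parp14, Dtx3l, Gbp2 and Iigp1) every A5-positive library was above every A5-negative one, and for none the reverse, where 15.9% and 9.12% of all genes were so ordered. With the block, 6 members rose (13.3%) and 0 fell, against 8.76% and 5.59% of all genes. The added 4 were Ifit1, Ifit3, Dtx3l and Tnfsf10.

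The same comparison in RORγt-deficient wounds gave 1 member that rose, Iigp1, and 0 that fell, where 4.56% of all genes rose and 0.965% fell. The median member differed by 0.22, against 0.00 for all genes, and 29 of 45 lay above 0, against 50% of all genes. Leaving out A5-negative library 2 or 3 gave a median of -0.05 or 0.40, and leaving out A5-positive library 1, 2 or 3 gave 0.08, 0.42 or 0.03. Gbp2, Gbp7 and Iigp1 were higher in every A5-positive library than in any A5-negative one, and Tnfsf10 lower, where 14.3% and 11.3% of all genes were ordered in these ways. With the block, Iigp1, Ifit3, Ifitm3, Slfn9 and Gbp2 rose and Tnfsf10 fell, which is 11.1% and 2.22% of the members, against 10.1% and 7.54% of all genes. The share that rose was again near that of all genes.

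**Figure D2:**
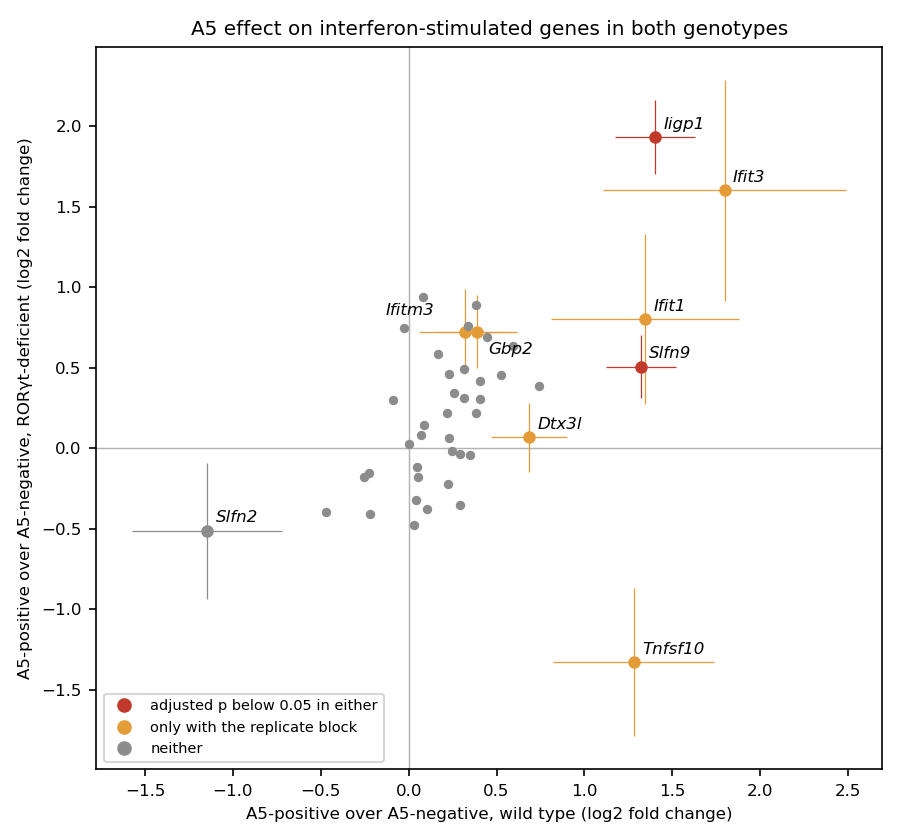
Change of each of the 45 genes between A5-positive and A5-negative cells, as log2 fold change without the block, in wild-type (x axis) and RORγt-deficient wounds (y axis), with standard errors drawn for the genes named. Iigp1 (1.40 and 1.93) is high on both axes, Slfn9 (1.32 and 0.51) mainly in wild type, and Tnfsf10 (1.28 and -1.33) has opposite signs.

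Iigp1 encodes an interferon-inducible GTPase that attacks the vacuoles of intracellular parasites, and it was the member that rose in both genotypes. In wild-type libraries 1, 2 and 3 its level was 7.30, 5.99 and 4.11 CPM in A5-negative cells and 15.0, 14.2 and 16.9 CPM in A5-positive cells. In RORγt-deficient wounds it was 6.25, 6.82 and 7.52 CPM in the A5-negative libraries, against 31.8, 19.9 and 26.8 CPM in the A5-positive ones. Every A5-positive library stood above every A5-negative one, and the RORγt-deficient A5-positive libraries were the 3 highest of all. The group means were 5.80 ± 1.60, 15.4 ± 1.40, 6.86 ± 0.640 and 26.2 ± 5.96 CPM (SD, n = 3) in that order. The log2 fold change was 1.40 ± 0.23 (SE) in wild type (edgeR adjusted p = 0.00658) and 1.93 ± 0.23 in RORγt-deficient cells (edgeR adjusted p = 0.000406). Leaving out any 1 of the compared libraries kept both calls, with adjusted p up to 0.0349 and 0.00435. Leaving out all 4 libraries of number 2, or all 4 of number 3, ended the wild-type call (adjusted p = 0.0698 and 0.190).

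The other 5 GTPases on the list (Gbp2, Gbp3, Gbp7, Igtp and Irgm1) belong to the same defence against intracellular microbes and lay above 0 in both genotypes, with log2 differences of 0.26 to 0.60 in wild type and 0.31 to 0.89 in RORγt-deficient cells. The median over all 6 was 0.39 and 0.68. Only Iigp1 passed with edgeR and the filter on low counts, without the block. Gbp2 was also called without the block in RORγt-deficient cells by DESeq2, and by edgeR without that filter. Gbp2, which binds and damages pathogen vacuoles, was at 39.3, 31.9 and 33.8 CPM in wild-type A5-negative libraries and at 40.5, 54.8 and 42.5 CPM in A5-positive ones. In RORγt-deficient cells it was at 26.0, 38.9 and 51.4 CPM in the A5-negative libraries, against 63.0, 53.6 and 75.3 CPM in the A5-positive ones. Its groups did not overlap within either genotype. In RORγt-deficient cells the log2 fold change of Gbp2 was 0.72 ± 0.23 (edgeR adjusted p = 0.0911), and 0.74 ± 0.21 with the block (adjusted p = 0.0348). The blocked call ended without A5-negative library 1 or 2 (adjusted p = 0.179 and 0.0813) and without A5-positive library 1 or 3 (adjusted p = 0.134 and 0.141).

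Slfn9 is a member of the Schlafen family, which restrains growth and virus replication. Its level in wild-type A5-negative libraries was 17.7, 17.7 and 17.2 CPM, and in A5-positive ones 55.5, 41.9 and 33.9 CPM. Slfn9 in RORγt-deficient wounds was at 17.4, 12.6 and 12.4 CPM in the A5-negative libraries, against 22.4, 17.1 and 21.0 CPM in the A5-positive ones. The wild-type A5-positive libraries were thus the 3 highest of the 12, and the RORγt-deficient groups overlapped each other. The means were 17.5 ± 0.293 and 43.8 ± 11.0 CPM in wild type, and 14.2 ± 2.81 and 20.1 ± 2.74 CPM in RORγt-deficient cells (SD, n = 3). The A5 difference was 1.32 ± 0.20 on the log2 scale in wild type (edgeR adjusted p = 0.00444), and kept its call without any 1 of the 6 compared libraries (adjusted p up to 0.0301). It ended without all 4 libraries of number 2, or all 4 of number 3 (adjusted p = 0.0651 and 0.0978). The RORγt-deficient difference was 0.51 ± 0.20 (edgeR adjusted p = 0.163), and 0.52 ± 0.15 with the block (adjusted p = 0.0370). The latter call ended without A5-negative library 1, 2 or 3 (adjusted p = 0.0746, 0.101 and 0.122) and also without A5-positive library 1 or 3 (adjusted p = 0.0856 and 0.170). Slfn9 lies on chromosome 11 at 82978390 to 82991830 (GRCm38, minus strand), and 11.9% of its exonic 50-base stretches also occur in other genes, mainly Slfn10-ps and Slfn8. Neither of these rose in A5-positive cells: the wild-type log2 differences were -0.18 ± 0.20 for Slfn10-ps and -1.23 ± 0.67 for Slfn8.

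**Figure D3:**
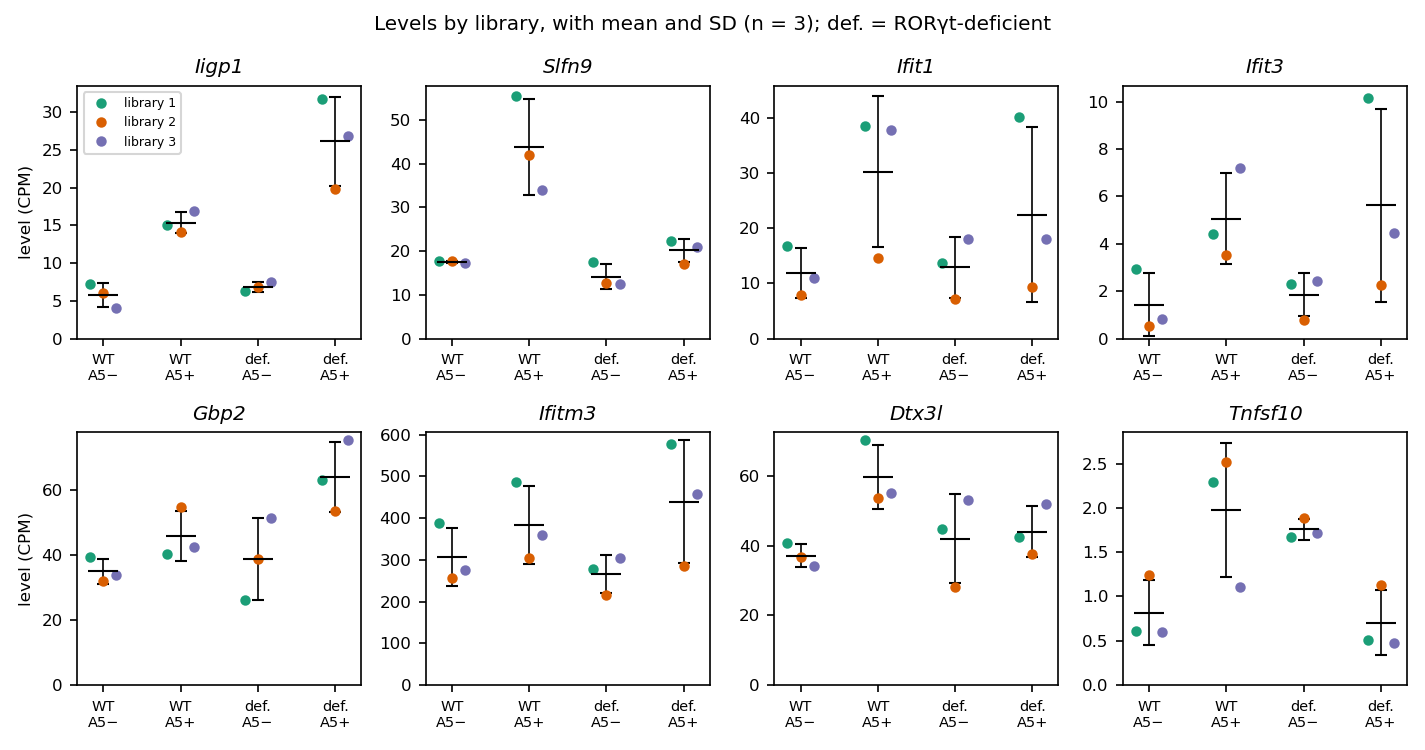
Levels of 8 interferon-stimulated genes (CPM, linear axes from 0) in the 4 groups, 1 point per library with the mean and SD (n = 3). Iigp1 and Slfn9 separate A5-positive from A5-negative wild-type cells, while Ifit1 and Ifitm3 overlap between groups, with library 2 the lowest of each group.

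Among the antiviral effectors, Ifit1 encodes a protein that binds foreign RNA and blocks its translation, and Ifit3 encodes a protein of the same family. Ifit1 was at 16.8, 7.88 and 11.0 CPM in the wild-type A5-negative libraries, against 38.5, 14.5 and 37.8 CPM in the A5-positive ones. In RORγt-deficient cells Ifit1 was at 13.6, 7.10 and 18.0 CPM in the A5-negative libraries, against 40.1, 9.32 and 18.0 CPM in the A5-positive ones. Library 2 was the lowest of every group, so groups overlapped although A5-positive library 2 stood above A5-negative library 2 in both genotypes. The wild-type log2 fold change of Ifit1 was 1.34 ± 0.53 (edgeR adjusted p = 0.183), and 1.28 ± 0.26 with the block (adjusted p = 0.0115). This call was lost without A5-negative library 3 (adjusted p = 0.0818).

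Ifit3 was at 2.94, 0.508 and 0.828 CPM in the wild-type A5-negative libraries, against 4.41, 3.54 and 7.20 CPM in the A5-positive ones. Ifit3 in RORγt-deficient cells was at 2.31, 0.802 and 2.44 CPM in the A5-negative libraries, against 10.2, 2.25 and 4.47 CPM in the A5-positive ones. The wild-type groups did not overlap, and the RORγt-deficient groups did, through A5-positive library 2. In wild type the log2 fold change was 1.80 ± 0.69 (edgeR adjusted p = 0.171), and 2.13 ± 0.45 with the block (adjusted p = 0.0136). This ended without A5-negative library 2 or 3 (adjusted p = 0.0575 and 0.0865) and also without A5-positive library 2 (adjusted p = 0.0689). In RORγt-deficient cells it was 1.60 ± 0.69 (edgeR adjusted p = 0.200), and 1.51 ± 0.43 with the block (adjusted p = 0.0370), a call that ended without any 1 of the 6 libraries (adjusted p from 0.0502 to 0.195). Ifit3 (chromosome 19, 34583531 to 34588731) shares 51.2% of its exonic 50-base stretches with Ifit3b, so reads may be split between the copies and its level is uncertain. Ifit3b, singled out after its values were seen, differed by 1.71 ± 0.39 in wild type with the block (adjusted p = 0.0189).

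Ifitm3 was at 387, 257 and 276 CPM in the wild-type A5-negative libraries, against 486, 304 and 359 CPM in the A5-positive ones. In RORγt-deficient cells Ifitm3 was at 277, 217 and 305 CPM in the A5-negative libraries, against 577, 284 and 458 CPM in the A5-positive ones. Within each number the A5-positive library was the higher in both genotypes, while the groups overlapped. In RORγt-deficient cells the log2 fold change of Ifitm3 was 0.72 ± 0.26 (edgeR adjusted p = 0.141), and 0.68 ± 0.14 with the block (adjusted p = 0.00935). The call with the block ended without A5-positive library 1 or 3 (adjusted p = 0.0532 and 0.0568). The other antiviral effectors, among them the viperin gene Rsad2, the GTPase gene Mx1 and Mx2, passed in neither genotype with or without the block. Mx2 is annotated as a polymorphic pseudogene in the gene set used here.

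Dtx3l, a ubiquitin ligase that works with the ADP-ribosyltransferase Parp9, was at 40.7, 36.8 and 34.1 CPM in the wild-type A5-negative libraries, against 70.5, 53.7 and 55.3 CPM in the A5-positive ones. Dtx3l in RORγt-deficient cells was at 44.9, 28.04 and 53.2 CPM in the A5-negative libraries, against 42.4, 37.8 and 52.1 CPM in the A5-positive ones, which overlapped. The wild-type log2 fold change was 0.68 ± 0.22 (edgeR adjusted p = 0.107), and 0.68 ± 0.17 with the block (adjusted p = 0.0285). The latter call ended without A5-negative library 1 or 3 (adjusted p = 0.0906 and 0.149) and also without A5-positive library 1 or 2 (adjusted p = 0.138 and 0.112). Dtx3l overlaps Parp9 on the opposite strand by 458 exonic bases on chromosome 16, and the strand setting of the counting is not given in the sources used here, so reads there cannot be assigned to 1 gene.

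Tnfsf10 encodes TRAIL, a ligand that can trigger death of target cells. With the block it passed in opposite directions in the 2 genotypes, at levels near 1 CPM (18 to 131 counts per library). In wild type it was at 0.609, 1.24 and 0.600 CPM in the A5-negative libraries, against 2.29, 2.52 and 1.11 CPM in the A5-positive ones. Tnfsf10 in RORγt-deficient cells was at 1.67, 1.89 and 1.71 CPM in the A5-negative libraries, against 0.513, 1.13 and 0.471 CPM in the A5-positive ones. The RORγt-deficient groups did not overlap, and the wild-type groups overlapped through A5-negative library 2 and A5-positive library 3. The log2 fold change was 1.28 ± 0.46 in wild type (edgeR adjusted p = 0.146), and 1.30 ± 0.36 with the block (adjusted p = 0.0357). It was -1.33 ± 0.46 in RORγt-deficient cells (edgeR adjusted p = 0.123), and -1.44 ± 0.36 with the block (adjusted p = 0.0214). The wild-type call with the block was kept only without A5-positive library 3, and ended without any 1 of the other 5 compared libraries (adjusted p from 0.0751 to 0.183). The RORγt-deficient call ended without A5-negative library 1 or 3 (adjusted p = 0.0690 and 0.0771) and without A5-positive library 1 or 3 (adjusted p = 0.0871 and 0.0877).

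Whether these A5 differences depended on genotype was tested by the interaction of both factors. No member passed with edgeR, without or with the block, where 0% of all genes passed. None passed with DESeq2 either, which called 0.0481% of all genes higher and 0% lower. At an unadjusted p under 0.05 there were 2 members, against 2.75% of all genes. Those were Tnfsf10, at -2.61 ± 0.65 on the log2 scale (unadjusted p = 0.00168, edgeR adjusted p = 0.9999), and Slfn9, at -0.81 ± 0.28 (unadjusted p = 0.0123, edgeR adjusted p = 0.9999). Ifih1, a sensor of double-stranded RNA, came next at -0.48 ± 0.23 (edgeR adjusted p = 0.9999). An A5 effect called in 1 genotype and not the other is therefore not shown to differ between them.

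The transcription factors and the sensors gave no call. None of Stat2, Irf1, Irf7 and Irf9 passed in any comparison, and their median difference between A5-positive and A5-negative cells was -0.11 in wild type and -0.17 in RORγt-deficient cells. Irf7, which amplifies the type I response, was at 74.7, 28.9 and 31.6 CPM in the wild-type A5-negative libraries, against 41.1, 34.04 and 40.7 CPM in the A5-positive ones. Its highest wild-type value was thus in A5-negative library 1, and the groups overlapped. None of the 11 sensors and their regulators passed, where 3.12% of all genes rose with A5 in wild type and 4.56% in RORγt-deficient cells. Their median was 0.10 in wild type, with 10 of 11 above 0, and -0.02 in RORγt-deficient cells. With the block these medians were 0.30 and 0.01. Of the other 8 genes of the regulator list that holds Dtx3l, among them Isg15, a ubiquitin-like modifier, and Usp18, which removes it, none passed in either genotype. The chemokine Cxcl10, which draws T cells, ran from 35.8 to 91.0 CPM over the 12 libraries and did not pass either.

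The comparisons between genotypes ask what RORγt deficiency changed within each sorted fraction. In A5-positive cells no member passed without the block, where 0.006% of all genes were higher in RORγt-deficient cells and 0% lower. At an unadjusted p under 0.05 there were 3 members, against 15% of all genes. The median member differed by 0.21, against 0.00 for all genes, and 31 of 45 lay above 0, against 50.2%. Without wild-type library 2 the median was 0.06, and without RORγt-deficient library 1, 2 or 3 it was 0.04, 0.45 and 0.05. Slfn2, Usp18 and Iigp1 were higher in every RORγt-deficient library than in any wild-type one, and Slfn9 and Dtx3l lower, where 9.04% and 9.01% of all genes were so ordered. With the block, Slfn9 and Tnfsf10 fell (4.44%) and none rose, against 1.76% and 2.26% of all genes, while DESeq2 without the block called Iigp1 higher and Slfn9 lower, against 1.8% and 1.88% of all genes.

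The per-library levels given above show these differences. Slfn9 was at 33.9 to 55.5 CPM in wild-type and 17.1 to 22.4 CPM in RORγt-deficient A5-positive cells, a log2 difference of -1.12 ± 0.20 (edgeR adjusted p = 0.165), and -1.10 ± 0.15 with the block (adjusted p = 0.0155). The blocked call ended without wild-type library 1 or 2 (adjusted p = 0.0553 and 0.0524) or RORγt-deficient library 2 (adjusted p = 0.0855). Tnfsf10 differed by -1.50 ± 0.46 (edgeR adjusted p = 0.209), and by -1.54 ± 0.36 with the block (adjusted p = 0.0436). Its call was kept only without wild-type library 3, and ended without any 1 of the other 5 (adjusted p from 0.102 to 0.200). Iigp1 differed by 0.77 ± 0.22 (edgeR adjusted p = 0.202), and did not pass with the block (adjusted p = 0.0668). Both A5 and genotype comparisons of A5-positive cells use the same libraries, so these values are not independent of the A5 differences.

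In A5-negative cells no member passed, without the block, with it or with DESeq2. Without the block 0.006% of all genes were higher in RORγt-deficient cells and 0% lower, and the same shares held with the block. DESeq2 called 0.0541% of all genes higher and 0.0721% lower. At an unadjusted p under 0.05 there were 2 members, Tnfsf10 (1.11 ± 0.46) and Ifih1 (0.35 ± 0.16), against 5.09% of all genes. Mx2 followed at 0.77 ± 0.35, and the edgeR adjusted p was 0.779 for each of the 3. Mx2, Parp14 and Tnfsf10 were higher in every RORγt-deficient library than in any wild-type one, and none lower, where 7.33% and 8.26% of all genes were so ordered. The median member lay at 0.20 with 34 of 45 above 0, but this rested on single libraries. It was 0.57, -0.01 and 0.05 without wild-type library 1, 2 or 3, and 0.39 and -0.11 without RORγt-deficient library 2 or 3.

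The level of many members also differed by library number. Library 2 was the lowest of its group for 36, 29, 39 and 42 of the 45 members in wild-type A5-negative, wild-type A5-positive, RORγt-deficient A5-negative and RORγt-deficient A5-positive cells. Over all genes library 2 was the lowest for 35.7%, 32%, 36.5% and 42.2% in the same order. For 23 members (51.1%) library 2 was the lowest in all 4 groups, against 9.02% of all genes. These included Irf7, Irf9, Oas1a, Ifit1, Ifit3, Rsad2, Isg15, Ifitm3 and Cxcl10. Rsad2, an enzyme that makes a chain-terminating nucleotide, was at 4.89 CPM in wild-type A5-negative library 2, beside 15.4 and 6.14 CPM in libraries 1 and 3. In RORγt-deficient A5-positive cells Rsad2 was at 3.81 CPM in library 2, beside 28.4 and 7.48 CPM.

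**Figure D4:**
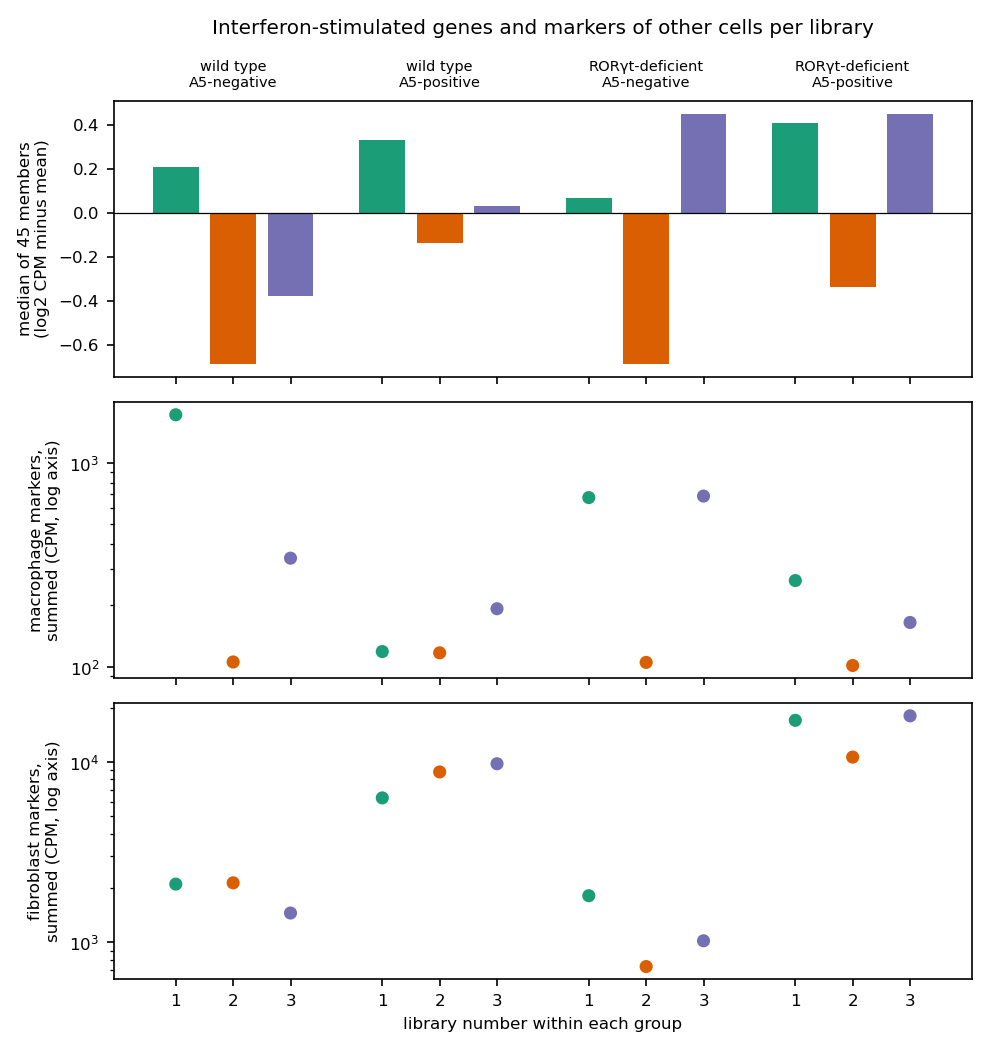
For each of the 12 libraries, the median over the 45 genes of log2 CPM minus the gene's mean (top), and the summed CPM of macrophage (middle) and fibroblast markers (bottom, both log axes). Library 2 of each group is low for the 45 genes and for macrophage markers, and fibroblast markers are high in every A5-positive library.

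Taken within each number, the median member difference between A5-positive and A5-negative wild-type cells was -0.02, 0.51 and 0.44 in libraries 1, 2 and 3, with 22, 41 and 41 of 45 members above 0. In RORγt-deficient cells it was 0.43, 0.23 and 0.00, with 31, 32 and 23 above 0. The genotype difference in A5-negative cells was -0.26, 0.04 and 0.85, and in A5-positive cells 0.25, -0.22 and 0.35. Both genotype differences thus changed sign between numbers. In wild type 20 members (44.4%) were higher in A5-positive cells within all 3 numbers and 2 (Irf1 and Slfn2) lower, against 31% and 25.4% of all genes. In RORγt-deficient cells 19 members (42.2%) were higher within all 3 numbers and 7 (15.6%) lower, against 26.3% and 26.7% of all genes.

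Markers of other cells moved with some of these values. The 19 macrophage and monocyte markers, none of them at 0 in any library, summed to 106 to 1722 CPM in wild-type A5-negative, 117 to 193 in wild-type A5-positive, 105 to 687 in RORγt-deficient A5-negative and 101 to 265 CPM in RORγt-deficient A5-positive libraries. In every group the lowest sum was in library 2, but in wild-type A5-positive cells it was nearly the same in library 1 (117 and 119 CPM). The median member there was at -0.14 in library 2 and 0.33 in library 1, as log2 CPM minus the gene's mean. Langerhans and dendritic cell markers there summed to 439 CPM in library 2 and 318 CPM in library 1. Of these sums Cd74 alone made up 248 and 161 CPM. Cd207, on the same list, went the other way, at 1.63 and 2.42 CPM. The highest macrophage sum of all was in wild-type A5-negative library 1. In it 37 of 45 members were also the highest of their group, against 38.2% of all genes. In RORγt-deficient A5-negative library 3, with a macrophage sum of 687 CPM, 39 of 45 members were the highest of their group, against 33.9% of all genes. Library 1 of that group had a sum of 676 CPM, with 4 of 45 members highest, against 31.2% of all genes. In RORγt-deficient A5-positive cells the sum was 265 CPM in library 1 and 165 CPM in library 3. There 16 and 28 of 45 members were the highest of their group, against 37.6% and 28.8% of all genes. The part of macrophage markers in the pattern by library number was not tested. All 19 macrophage markers lay below 0 in A5-positive against A5-negative cells of both genotypes. In wild type 19 were lower at an unadjusted p under 0.05, with 0 called by edgeR without the block and 1 with it. In RORγt-deficient cells 4 were, with 0 called in either fit. Of all genes, 20.5% and 21.8% had such an unadjusted p, in either direction. The part of the macrophage markers in the A5 results was not tested. Slfn2, which leukocytes express strongly, was at 65.8 CPM in wild-type A5-negative library 1 and between 14.5 and 42.6 CPM in the other 11.

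Fibroblast markers, of which Twist2 was at 0 in 1 library and the others in none, summed to 1455 to 2137 CPM in wild-type A5-negative and 6317 to 9765 CPM in wild-type A5-positive libraries. In RORγt-deficient cells they summed to 735 to 1814 CPM in A5-negative and 10630 to 17992 CPM in A5-positive libraries. Of the 12 markers, 10 rose in A5-positive cells of each genotype, against 3.12% and 4.56% of all genes. These are the same comparisons in which Iigp1 and Slfn9 were called. Between genotypes in A5-positive cells, Iigp1, Slfn2, Usp18, Slfn9 and Dtx3l did not overlap. There 9 of the 12 fibroblast markers were higher in every RORγt-deficient library than in any wild-type one, against 9.04% of all genes. Of the 12, 11 lay above 0, with a median log2 difference of 1.12, 0 called without the block and 1 with it. Their part in any of these results was not tested, and in bulk samples fewer cells of a type and less RNA per cell cannot be told apart. Langerhans and dendritic cell markers ran from 317 to 3942 CPM, neutrophil markers from 6.67 to 342 CPM, T cell markers from 7.73 to 23.2 CPM and endothelial markers from 2.55 to 47.4 CPM. The sum of the 10 neutrophil markers was higher in every A5-positive library than in any A5-negative one. In each library 1 to 4 of them were at 0, always among Ly6g, Retnlg, Camp and Ngp. The rest of the list is S100a8, S100a9, Csf3r, Cxcr2, Mmp8 and Mmp9. Which cells these transcripts came from was not tested. Of the 10 neutrophil markers, 6 were tested between groups. Singly, 3 of the 6 were so ordered in wild type and 1 in RORγt-deficient cells, against 15.9% and 14.3% of all genes. The reverse order held for 1 and 0 of the 6, against 9.12% and 11.3% of all genes.

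Of the genes that act before the members in the pathway, the ligands were mostly at or near 0. Ifna1, Ifna2, Ifna5 and Ifnz had 0 counts in all 12 libraries, where 3 counts, the floor used here, correspond to 0.0402 to 0.102 CPM. Ifnb1, the beta interferon, had 52 counts in RORγt-deficient A5-positive library 1 and 0 to 2 in the other 11. Ifna4 had 24 counts in the same library and 0 in all others. The lambda interferons Ifnl2 and Ifnl3 had 146 and 48 counts there, against 0 to 23 and 0 to 4 elsewhere. Counts of Ifnb1, Ifna4, Ifnl2 and Ifnl3 were thus highest in 1 and the same library. It also had the highest level of 10 of the 45 members among all 12 libraries (Zbp1, Ifit1, Ifit3, Rsad2, Cmpk2, Ifitm3, Isg15, Xaf1, Gbp3 and Iigp1), against 9.62% of all genes. Library 3 of RORγt-deficient A5-negative cells and library 3 of RORγt-deficient A5-positive cells each had the highest level of 11 members, against 4.7% and 8.39% of all genes. Their counts of Ifnb1 were 0 and 2. Cmpk2, a mitochondrial nucleotide kinase, was at 21.5 CPM in RORγt-deficient A5-positive library 1 and at 12.8 CPM in the next library, and Rsad2 was at 28.4 against 18.7 CPM.

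Without RORγt-deficient A5-positive library 1, the A5 median over the 45 members in RORγt-deficient cells was 0.08 and the genotype median in A5-positive cells was 0.04. The call of Iigp1 was kept (adjusted p = 0.00239). Without library 3 of the same group, which had 2 counts of Ifnb1, these medians were 0.03 and 0.05. Without library 2 of that group they were 0.42 and 0.45. Ifng, the type II interferon, had 19 counts in wild-type A5-negative library 1, 2 in RORγt-deficient A5-negative library 2 and 0 in the other 10. Ifnk, the keratinocyte interferon, was detected in all 12 libraries, at 0.420 to 4.84 CPM. Only Ifnk and Ifnl2 of the 11 ligands passed the filter on low counts, and neither was called in any comparison.

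The 6 receptor chains were all expressed, and none was called in any comparison without or with the block. Ifngr1, the binding chain for interferon gamma, ranged from 69.1 to 125 CPM and Ifnar1, a chain for type I interferons, from 35.6 to 51.2 CPM. Of the 38 pathway symbols found in the table, ligands and receptors included, 29 were tested and none passed without the block. With it, Tmem173, which encodes the DNA-response adaptor STING, rose in A5-positive cells of both genotypes. In wild type it was at 8.37, 4.72 and 3.14 CPM in the A5-negative libraries, against 19.4, 16.9 and 7.24 CPM in the A5-positive ones. The RORγt-deficient values were 6.03, 3.47 and 5.24 CPM in the A5-negative libraries, against 14.3, 9.07 and 16.3 CPM in the A5-positive ones. These groups overlapped only in wild type. The log2 difference of Tmem173 was 1.42 in both genotypes (edgeR adjusted p = 0.0888 and 0.0759), and with the block 1.46 ± 0.35 in wild type (adjusted p = 0.0233) and 1.46 ± 0.36 in RORγt-deficient cells (adjusted p = 0.0187). The wild-type call with the block ended without A5-negative library 2 or 3 (adjusted p = 0.0701 and 0.109) and also without A5-positive library 1 or 2 (adjusted p = 0.0923 and 0.110). The RORγt-deficient call ended without A5-negative library 1 or 2 (adjusted p = 0.0977 and 0.0677) and also without A5-positive library 3 (adjusted p = 0.119).

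The receptor-bound Janus kinases lay below 0 in A5-positive cells of both genotypes. With the block Jak2 fell in wild type (-0.50 ± 0.13, adjusted p = 0.0262), while Jak1 (-0.44 ± 0.11, adjusted p = 0.0240) and Tyk2 (-0.37 ± 0.11, adjusted p = 0.0374) fell in RORγt-deficient cells. Their adjusted p without the block was 0.365, 0.257 and 0.101 in the same order. Mavs, the adaptor of RNA sensors on mitochondria, rose with the block in wild-type A5-positive cells (0.39 ± 0.11, adjusted p = 0.0401). The inhibitor Pias1 fell there (-0.35 ± 0.10, adjusted p = 0.0440), and the kinase Ikbke fell in RORγt-deficient A5-positive cells (-0.47 ± 0.12, adjusted p = 0.0257). Between genotypes in A5-positive cells, Jak2 (0.52 ± 0.13, adjusted p = 0.0463) and the phosphatase Ptpn2 (0.45 ± 0.10, adjusted p = 0.0404) were higher in RORγt-deficient cells with the block. Mavs was lower there (-0.53 ± 0.11, adjusted p = 0.0388). None of these passed without the block. With it, 8.76% of all genes rose and 5.59% fell with A5 in wild type, and 10.1% and 7.54% in RORγt-deficient cells. Between genotypes in A5-positive cells 2.26% were higher and 1.76% lower. Of the 3 kinases, 1 fell in wild type and 2 in RORγt-deficient cells. Of the 6 inhibitors, 1 and 0 fell. Of 12 tested genes for sensing and induction, Tmem173 included, 2 rose in wild type and 1 in RORγt-deficient cells, while 0 and 1 fell.

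Each of these calls with the block also rested on single libraries. In wild type, the Mavs call ended without any 1 of the 6 compared libraries (adjusted p from 0.0772 to 0.214), that of Jak2 without any but A5-negative library 2 (0.0635 to 0.118) and that of Pias1 without any but A5-positive library 3 (0.0752 to 0.205). In RORγt-deficient cells the Jak1 call was lost without A5-negative library 1 (adjusted p = 0.0795) and also without A5-positive library 1 or 3 (0.0983 and 0.102). That of Tyk2 ended without any but A5-negative library 2 (0.0522 to 0.164), and that of Ikbke without A5-negative library 1 (0.101) and also without A5-positive library 2 or 3 (0.0657 and 0.0992). Between genotypes, the calls of Jak2 and Mavs ended without any 1 of the 6 (0.0502 to 0.181 and 0.0506 to 0.165), and that of Ptpn2 without any but wild-type library 3 (0.0780 to 0.200).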

How the data were processed

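RNA of 12 pools of sorted epithelial cells was sequenced from SMART-Seq v4 libraries, per the labels' protocols. Reads were processed with bcl2fastq, Trimmomatic 0.36, STAR and featureCounts on mm10 (GRCm38), per the submitters' processing notes. The authors deposited raw counts per gene symbol. The annotation, the strand setting and the treatment of reads with several matches were not given in the sources used here. Of 55341 rows, 26 held a date in place of a symbol (0.110 to 0.128% of the counts of a library) and were left out.

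Groups came from the labels. A check of the genotype label by the targeted gene is not reported here. Counts were tested in 1 model of 4 groups with edgeR 4.0.16 (TMM, filterByExpr, quasi-likelihood F test) in R 4.3.3, with Benjamini-Hochberg adjustment. The scripts were tested on simulated data. Members were matched by symbol, and 38 of 39 pathway symbols were found. SE is the log2 fold change divided by the root of F. The members and lists were chosen with earlier results of these data known. Statistics are given for members called without or with the block, up to 8 per comparison and fit, or else for the 3 smallest p. Alternatives were RLE scaling, DESeq2 1.42.0 (shares over genes with an adjusted p), other filters, the library number as a block, only the 6 compared libraries, and leaving out libraries. The numbers were taken to pair libraries since all same-number correlations, over 9071 genes, exceeded 0.1. No 2 libraries of a group agreed within sampling noise. The floor of 3 counts covers counting error only, while SD and SE include the spread between libraries. Gene positions and lengths are from GENCODE on GRCm38, and promoter windows from RefSeq on GRCm38.p6.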

Additional observations from a re-analysis of the deposited data

How the results depend on the processing

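With the replicate block, which pairs libraries of the same number, the genes called rose from 575 to 2394 for the A5 effect in wild type, from 921 to 2937 in RORγt-deficient cells, and from 1 to 670 for genotype in A5-positive cells. Members called went from 2 to 6, from 1 to 6 and from 0 to 2. The block changed no call of a member for genotype in A5-negative cells or for the interaction. DESeq2 called 1454, 1723, 493, 21 and 8 genes over the 5 comparisons (A5 in wild type, A5 in RORγt-deficient cells, genotype in A5-positive cells, genotype in A5-negative cells, interaction), and 2 members in each of the first 3. Without the filter 939 genes were called for A5 in wild type, 67 for genotype in A5-positive and 7 in A5-negative cells, with 2 members for A5 in RORγt-deficient cells and 1 for genotype in A5-positive cells.

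Leaving out all libraries of number 1, 2 or 3 left 199, 155 and 38 genes for A5 in wild type, with 0 members without number 2 or number 3, and 425, 566 and 135 genes in RORγt-deficient cells. The 6 compared libraries alone gave 344 genes for A5 in wild type. Leaving out 1 library at a time gave 156 to 569 genes and 2 members for A5 in wild type (579 to 2357 genes and 2 to 6 members with the block). In RORγt-deficient cells it gave 466 to 1731 genes and 1 to 3 members (1073 to 2960 and 1 to 6 with the block). For genotype in A5-positive cells it gave 1 to 2 genes and 0 members (6 to 705 and 0 to 2 with the block), and in A5-negative cells 1 gene and 0 members (1 to 4 genes with the block). For the interaction both counts were 0. The Iigp1 calls in both genotypes and the Slfn9 call in wild type were kept under RLE, DESeq2 and both other filters. The causes of these changes were not tested.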
